A study of Mus musculus with 59 samples.

Results

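The potassium channel genes of the mouse prefrontal cortex were described across Naa15 genotype and drug treatment. Members were the genes whose symbol consists of Kcn, a family letter or letters and a number, with a normalised count of at least 10 in at least 4 libraries. Kcnj8 and Kcnj10 were left out. The rule found 83 members among 17891 genes tested, of which 80 code for proteins and 3 (Kcnd3os, Kcnmb4os2 and Kcnq1ot1) are non-coding transcripts antisense to a coding member. No gene of this pattern in the table fell under the minimum. The members nearest to it were Kcnn4, with 13.4 in the library that ranks 4th from the top, and Kcnj15, at 14.9.

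All mice were C57BL/6J, and prefrontal cortex was collected at postnatal day 25 after 3 weeks of exposure through the mother's milk on days 3 to 24. The groups were Naa15 heterozygous (HT) mice given fluoxetine (5 females and 5 males), lithium (5 and 5) or vehicle (5 and 4), and wild-type (WT) mice given fluoxetine, lithium or vehicle (5 females and 5 males each). Fluoxetine is a serotonin reuptake inhibitor and lithium a mood stabiliser, and Naa15 encodes the auxiliary subunit of the NatA N-terminal acetyltransferase. The labels describe neither the allele nor the doses and name no litters. Replicates are separate libraries, and p-values measure the spread between them. Exposure came through the mother, so libraries of littermates would not be independent, and litters could not be modelled.

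Potassium channels set the resting potential and end the action potential. Voltage-gated Kv channels are tetramers of pore subunits, among which Kv1, Kv3, Kv4 and Kv2 members differ in speed and location, and silent modifier subunits (the Kcnf, Kcng, Kcns and Kcnv genes) join Kv2 pores without forming channels alone. Inward rectifiers and two-pore leak channels hold the membrane near rest, KCNQ channels carry the M-current, and calcium-activated SK and BK channels follow calcium entry and shape the afterhyperpolarisation. KChIP, Kv beta, BK beta and MinK-type proteins are auxiliary subunits.

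Libraries held 24.99 to 32.87 M assigned reads. The 20 lithium libraries and the 5 libraries of HT females given fluoxetine stood apart from the other 34 on the first principal component (-31.6 to -14.9 against -2.74 to 27.6), which held 14.43% of the variance. Mitochondrial transcripts made up 6.76% to 10.3% of the values in these 25 libraries and 4.96% to 7.83% in the other 34. The slope of log2 values on the GC content of the gene ran between -0.255 and -0.0569 per 10 percentage points in the 25 and between -0.0627 and 0.191 in the 34. Lithium and this shift in composition cannot be told apart, since no lithium library lies outside the 25, so the lithium counts and the values of most members named for lithium are also given with a trend on GC content and transcript length removed. Naa15 itself had 1510 (lowest), 1670 (median) and 1909 (highest) normalised counts in the 29 HT libraries, against 1476, 1631 and 1971 in the 30 WT libraries. The ranges overlap almost fully, so the level of the targeted gene did not check the genotype labels.

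Levels were compared between genes as normalised counts per kilobase of the longest annotated transcript, averaged over the 59 libraries. Kcnab2 (Kv beta 2, a cytoplasmic partner of Kv1 channels) stood highest at 2446 ± 287 per kilobase (SD, n = 59) and Kcnj4 (the inward rectifier Kir2.3) had 1932. Other families were led by Kcnip3 (a KChIP) at 1550, Kcnh3 (Elk2) at 1493, Kcnmb4 (the neuronal BK beta subunit) at 1269, Kcnk1 (the two-pore channel TWIK-1) at 1265 and Kcnf1 (a silent subunit) at 1234. Kcnma1 (the BK pore) reached 871 and Kcnt1 (the sodium-activated channel Slack) 682, while Kcne1l led the scarcer MinK-type subunits. Of the 83 members, 48 lay above the median of all genes tested (130 per kilobase), and 5 had a mean normalised count under 20. Kcnab2 and Kcnh3 overlap Nphp4 and Mcrs1 on the opposite strand, and whether the counting used strand is not given in the sources used here.

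The 15 Kv pore genes had a median of 515 per kilobase and supplied 19.1% of the summed level. The 12 inward rectifiers supplied 15.5% with a median of 188, so that their share rested on a few high genes. The 4 KChIP genes had the highest family median, 795, and supplied 9.96%. The 11 two-pore genes (median 81.5) and the 6 calcium-activated genes (median 112) lay lower, and the calcium-activated genes supplied 4.21%. Families were set by gene symbol, so the calcium-activated family also holds a relative of the BK pore that calcium does not open. Replicates were close: the median coefficient of variation within a group was 11.3%, and it was under 10% for 38 members.

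**Figure D1:**
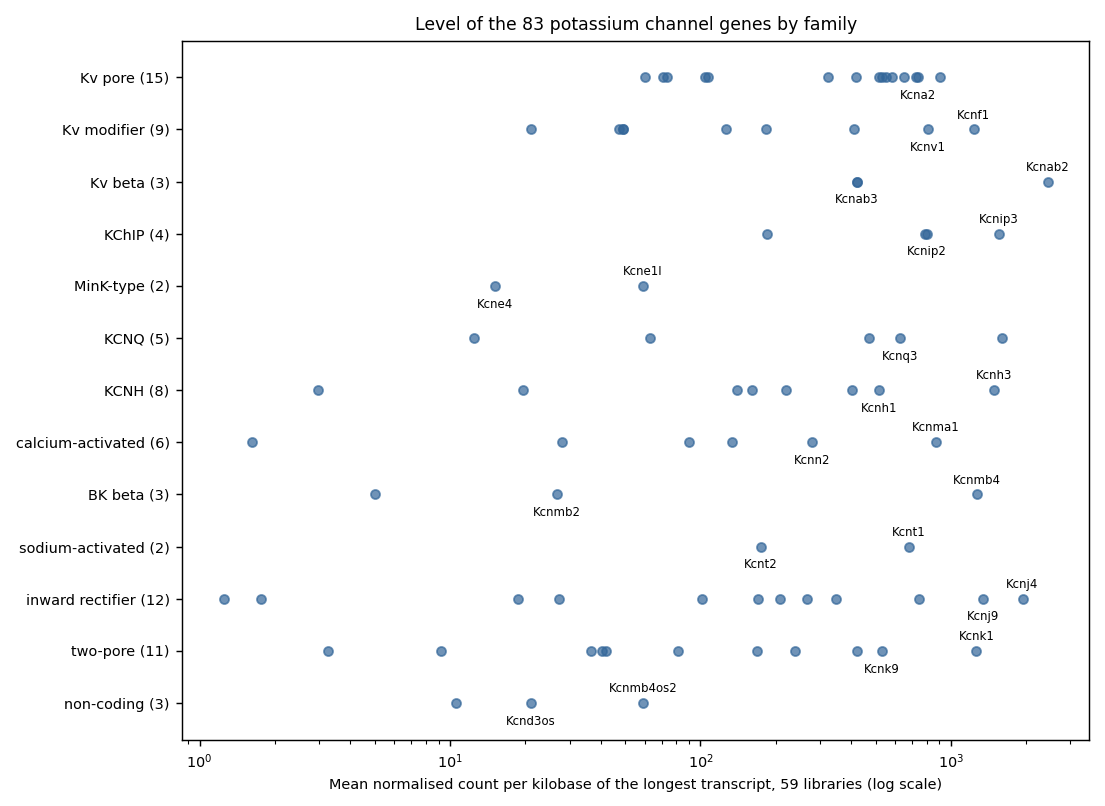
Mean level of each of the 83 members, in normalised counts per kilobase of the longest transcript on a log axis, by family, with members of highest level labelled in each family. Kcnab2 (2446) and Kcnj4 (1932) are the right-most labelled points, and the MinK-type and non-coding genes all lie below 100.

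Fluoxetine in WT mice raised 3 potassium channel genes and lowered none. Kcnn2 encodes SK2, a small-conductance channel of dendrites and spines opened by calcium; Kcnj2 encodes Kir2.1, a strong inward rectifier; Kcnk1 encodes the leak channel TWIK-1. All 20 libraries of this comparison belong to the 34 that did not stand apart. The 3 members called higher compare with 0.632% of all genes tested, and the 0 called lower with 0.386%, at an adjusted p under 0.05 in limma. At an unadjusted p under 0.05, 10 members lay higher and 5 lower, and edgeR called 3 higher and 0 lower while DESeq2 called 4 higher and 1 lower on the recovered reads. Leaving out WT vehicle female replicate 2 gave 6 calls, and the 3 named calls held with each of the 20 libraries left out.

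Kcnn2 (ENSMUSG00000054477, chromosome 18) had 982, 1141 and 1225 normalised counts (lowest, median and highest of 10) in WT fluoxetine libraries, against 825, 880 and 985 in WT vehicle libraries. The groups overlap only at their edge, with 9 of 10 fluoxetine libraries above every vehicle library. The log2 difference was 0.31 ± 0.05 (SE, adjusted p = 0.000206 in limma). In HT mice Kcnn2 had 977, 1083 and 1214 in fluoxetine libraries (n = 10), against 810, 888 and 1171 in vehicle libraries (n = 9). The HT ranges overlap widely, and 9 of 10 fluoxetine libraries exceeded the vehicle mean of their sex. The HT difference was 0.21 ± 0.05 (adjusted p = 0.00152), and the difference between genotypes in the fluoxetine effect was -0.10 ± 0.07 (adjusted p = 0.364).

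Lithium libraries share their vehicle libraries with the fluoxetine comparison, and Kcnn2 was higher there too. It had 875, 1102 and 1169 in WT lithium libraries and 965, 1062 and 1175 in HT lithium libraries, for differences of 0.18 ± 0.05 in HT (adjusted p = 0.0039) and 0.23 ± 0.05 in WT (adjusted p = 0.000149). With the GC and length trend removed, the lithium difference was 0.35 in HT and 0.40 in WT (adjusted p = 2.57e-07 and 3.73e-09) and the fluoxetine difference was 0.30 in WT and 0.32 in HT (adjusted p = 0.000183 and 1.17e-05).

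Kcnj2 (ENSMUSG00000041695) lies on chromosome 11 at 111066164 to 111076821 on the plus strand of GRCm38. It had 463, 601 and 684 normalised counts in WT fluoxetine libraries, against 318, 426 and 569 in WT vehicle libraries. All 10 fluoxetine libraries exceeded the vehicle mean of their sex and 7 exceeded every vehicle library. The log2 difference was 0.46 ± 0.10 (adjusted p = 0.00664). In WT lithium libraries Kcnj2 had 416, 661 and 837, with 9 of 10 above every vehicle library, and the difference was 0.59 ± 0.10 (adjusted p = 5.92e-07), or 0.49 with the GC and length trend removed (adjusted p = 6.24e-05).

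In HT mice the Kcnj2 ranges overlap far more. It had 377, 528 and 690 in fluoxetine libraries, 431, 584 and 671 in lithium libraries and 384, 455 and 650 in vehicle libraries. The fluoxetine difference was 0.14 ± 0.10 (adjusted p = 0.29). The lithium difference of 0.27 ± 0.10 passed (adjusted p = 0.0201) but not without HT vehicle female replicate 3 (adjusted p = 0.0622), nor with the GC and length trend removed (0.12, adjusted p = 0.398). The test of the genotypes against each other did not pass for either drug (-0.31 ± 0.14, adjusted p = 0.0995 for fluoxetine; -0.32 ± 0.14, adjusted p = 0.832 for lithium).

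Kcnk1 (ENSMUSG00000033998, chromosome 8 at 125995170 to 126030685, plus strand) moved by the smallest amount of the 3. It had 2678, 2904 and 3148 in WT fluoxetine libraries, 2836, 2980 and 3153 in WT lithium libraries and 2328, 2660 and 2785 in WT vehicle libraries. Lithium and vehicle do not overlap in WT, and 8 of 10 fluoxetine libraries exceeded every vehicle library. The log2 differences were 0.14 ± 0.03 for fluoxetine (adjusted p = 0.00475) and 0.18 ± 0.03 for lithium (adjusted p = 5.62e-07). In HT mice they were 0.08 ± 0.03 for each drug (adjusted p = 0.0441 and 0.0237), and leaving out any one of 10 of the 19 libraries ended the HT fluoxetine call (adjusted p up to 0.136). With the GC and length trend removed the lithium differences were 0.09 in HT and 0.18 in WT (adjusted p = 0.0251 and 2.12e-06).

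The 300-base promoter windows of these genes (RefSeq, GRCm38.p6, 250 bases before to 50 after the start) are shown for 4 of the members described here, Kcnj2 and Kcnk1, which were higher under both drugs in WT, and Kcnk12 and Kcng4, which were lower under lithium in both genotypes. Capitals mark a GC box (GGGCGG or its complement CCGCCC) or an E-box (CACGTG). The Kcnj2 window is chr11:111065914-111066213 on the plus strand, the Kcnk1 window chr8:125994852-125995151 on the plus strand, the Kcnk12 window chr17:87797945-87798244 on the minus strand and the Kcng4 window chr8:119635631-119635930 on the minus strand.
Kcnj2: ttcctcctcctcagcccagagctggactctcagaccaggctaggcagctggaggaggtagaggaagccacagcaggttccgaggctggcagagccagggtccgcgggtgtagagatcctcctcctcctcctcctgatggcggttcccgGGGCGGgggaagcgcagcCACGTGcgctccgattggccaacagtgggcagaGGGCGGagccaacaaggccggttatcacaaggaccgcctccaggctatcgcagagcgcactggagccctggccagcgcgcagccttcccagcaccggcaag
Kcnk1: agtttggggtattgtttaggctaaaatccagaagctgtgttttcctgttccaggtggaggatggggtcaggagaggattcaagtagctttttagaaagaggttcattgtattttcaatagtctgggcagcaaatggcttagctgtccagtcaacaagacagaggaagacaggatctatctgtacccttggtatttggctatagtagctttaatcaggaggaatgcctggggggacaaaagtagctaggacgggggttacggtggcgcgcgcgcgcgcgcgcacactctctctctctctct
Kcnk12: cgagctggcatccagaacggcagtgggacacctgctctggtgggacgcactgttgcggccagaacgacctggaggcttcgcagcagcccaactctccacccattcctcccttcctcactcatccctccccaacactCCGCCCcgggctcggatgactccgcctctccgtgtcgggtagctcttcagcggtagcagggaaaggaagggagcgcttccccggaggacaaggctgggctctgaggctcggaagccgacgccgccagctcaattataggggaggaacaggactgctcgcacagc
Kcng4: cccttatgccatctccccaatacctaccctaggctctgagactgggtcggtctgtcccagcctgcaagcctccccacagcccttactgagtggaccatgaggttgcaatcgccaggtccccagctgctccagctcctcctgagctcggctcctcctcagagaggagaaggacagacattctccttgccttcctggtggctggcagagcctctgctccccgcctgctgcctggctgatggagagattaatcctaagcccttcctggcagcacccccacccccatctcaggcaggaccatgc

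Kcnj2, higher under both drugs in WT, has 66.7% GC with 2 GC boxes and 1 E-box, while Kcnk1 has 49.0% GC with neither motif and ends in runs of cg and ct repeats. Kcnk12 (64.3% GC, 20 CG pairs, 1 GC box) and Kcng4 (61.3% GC, 4 CG pairs, no box) differ in their CG pairs although both fell under lithium. Among all 32851 RefSeq windows, counted on both strands, 35.7% hold a GC box and 7.15% an E-box. In the 83 windows of the 60 members matched by symbol, 42 windows (50.6%) hold a GC box, 7 (8.43%) an E-box and 0 the cAMP response element TGACGTCA, which 1.79% of all windows hold. Member windows had a median GC content of 60.3%, against 52.7% for all windows. These matches are a description of the letters.

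**Figure D2:**
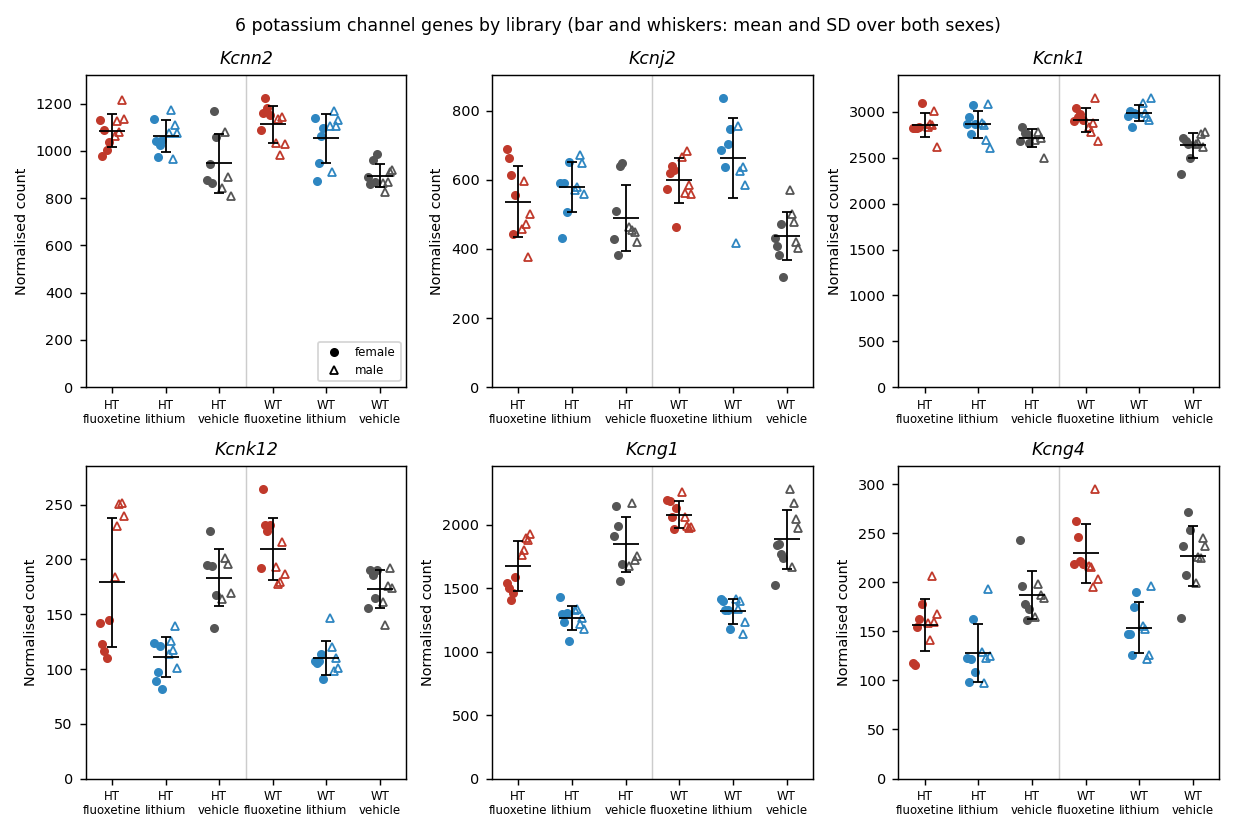
Normalised counts per library of Kcnn2, Kcnj2, Kcnk1, Kcnk12, Kcng1 and Kcng4 in the 6 genotype and treatment arms, with HT left of WT and vehicle right of the drugs (filled circles, females; open triangles, males; bars, mean and SD over both sexes). Kcnn2, Kcnj2 and Kcnk1 lie higher under both drugs in WT, with Kcnn2 medians of 1141 (fluoxetine), 1102 (lithium) and 880 (vehicle), and Kcnk12, Kcng1 and Kcng4 lie lower under lithium in both genotypes.

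Fluoxetine in HT mice gave more calls, 7 members higher and 13 lower, beside 14.8% and 16.3% of all genes tested. They came with the 5 HT females. Among HT females alone 5 members were higher (18.9% of all genes) and 17 lower (19.5%), while among HT males 0 were higher (0.0950%) and 0 lower (0.0671%) in limma. In males 7 members had an unadjusted p under 0.05, edgeR called 0 and DESeq2 1. Without the HT fluoxetine females, 1 member was called in HT, Kcnn2, at 0.26 (adjusted p = 0.0414), and no share of all genes is given. In this setting, here and below, the HT fluoxetine males took the weight of both sexes. The other groups kept both sexes, so sex is mixed into these comparisons.

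Kcnk12 (THIK-2, a two-pore subunit that gives little current alone) differed most between the sexes. It had 110, 116, 123, 142 and 145 normalised counts in the 5 HT fluoxetine females, against 138, 167, 194, 195 and 226 in the 5 HT vehicle females. It had 184, 230, 239, 251 and 252 in the 5 HT fluoxetine males, against 164, 169, 196 and 201 in the 4 HT vehicle males. Of the females given fluoxetine 3 of 5 lay below every vehicle female, whereas 4 of 5 males given fluoxetine lay above every vehicle male. The differences were -0.52 ± 0.12 in females (adjusted p = 0.000297) and 0.34 ± 0.12 in males (adjusted p = 0.365). The sexes differed by -0.85 ± 0.17 (adjusted p = 0.000363). Kcnk12 also had the highest GC content of the members, 69.4%. The slope on GC content, in the units above, ran -0.236 to -0.0581 in HT fluoxetine females. In HT fluoxetine males it ran -0.00249 to 0.149. The part of this shift in composition in the Kcnk12 sex difference was not tested, and its value with the GC and length trend removed is not given here.

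Other members lower in HT fluoxetine females were Kcnh2 (ERG1) by -0.49, Kcnj4 by -0.44, Kcnh3 by -0.38 and Kcnj11 (Kir6.2, the pore of ATP-sensitive channels) by -0.37, on the log2 scale. Kcnab2 had 7868, 8200, 8387, 8397 and 8890 in the HT fluoxetine females, against 10326, 10494, 10518, 10789 and 11212 in the HT vehicle females. These do not overlap, and the difference was -0.35 ± 0.04 (adjusted p = 1.66e-09). Members higher there included Kcnmb2 (a BK beta subunit) by 0.38, Kcnip4 (a KChIP) by 0.33 and the non-coding Kcnq1ot1 by 0.44. With the GC and length trend removed, Kcnab2 was at -0.05, Kcnh3 at -0.04 and Kcnq1ot1 at -0.02, while Kcnj4 was still called at -0.20 (adjusted p = 0.00244). Values with the trend removed are not given here for Kcnh2, Kcnj11, Kcnmb2 and Kcnip4.

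Cell type markers moved with the difference in HT females, and their part in it was not tested. The summed level of 9 excitatory neuron markers ran 62195 to 65997 in HT fluoxetine females, against 69318 to 80385 in HT vehicle females, without overlap. In males it ran 68845 to 77508 in HT fluoxetine libraries, against 66552 to 80808 in HT vehicle libraries. The summed level of 8 astrocyte markers ran 128128 to 139088 in HT fluoxetine females, against 137223 to 180926 in HT vehicle females. In females 1 excitatory neuron marker was called higher and 3 lower, 4 astrocyte markers were lower, 4 of 6 markers of pericytes and smooth muscle and 4 of 6 of oligodendrocyte precursors were lower, and of 6 endothelial markers 1 was higher and 3 lower. In bulk tissue fewer cells of a type and less RNA per cell cannot be told apart. With the trend removed the excitatory neuron markers had 0 calls, the astrocyte markers 3 lower, the pericyte and smooth muscle markers 3 lower, and the precursor and endothelial markers 1 lower each. Of 8 microglia markers 2 were then lower, and of 9 interneuron markers 2. The oligodendrocyte, striatal, choroid plexus and olfactory bulb markers had 0 calls. No share of all genes is given for this setting. No excitatory neuron, astrocyte or pericyte and smooth muscle marker was at 0 in any library.

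The fluoxetine effect of HT females lay above that of HT males for 0 members (6.59% of all genes tested) and below it for 10 (8.59%). At an unadjusted p under 0.05, 2 members lay above, with 0 called above by edgeR and 1 by DESeq2. The genotype by fluoxetine interaction was positive for 2 members (8.97%) and negative for 10 (11.7%), led by Kcnab2 (-0.24), Kcnh3 (-0.36), Kcng1 (-0.29) and Kcnj4 (-0.23). Neither edgeR, at 11, nor DESeq2, at 12, moved this count far, but it was 0 without the HT fluoxetine females and 0 with the trend removed. Under fluoxetine, HT mice were higher than WT mice in 2 members (15.6%) and lower in 18 (17.8%), and in 0 without those females. No share of all genes is given without those females or with the trend removed. Whether these losses are particular to the members was therefore not tested.

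Lithium changed many members in each genotype, more of them downwards. In WT mice 12 were higher and 29 lower, beside 26.6% and 26.3% of all genes tested. In HT mice 15 were higher and 29 lower, beside 25.7% and 24.9%. Median log2 differences were -0.09 in HT and -0.12 in WT over the 83 members, and 0.03 in HT and 0.01 in WT over all genes tested. Both genotypes shared the direction for 34 called members, 10 higher (of 15 in HT and 12 in WT) and 24 lower (of 29 in each), and 0 were called in opposite directions. The genotype by lithium interaction was called for 0 members (0% of all genes tested in either direction), with 5 members at an unadjusted p under 0.05 and 0 called by edgeR or DESeq2.

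By family, the Kv pore genes had 0 higher and 7 lower of 15 in HT and 1 higher and 9 lower in WT. The silent modifiers had 2 higher and 5 lower of 9 in each genotype. KCNH genes had 1 higher and 3 lower of 8 in HT and 0 and 4 in WT, and inward rectifiers 2 higher and 5 lower of 12 in HT and 2 and 4 in WT. Two-pore genes had 2 higher and 2 lower of 11 in HT and 1 and 3 in WT, and calcium-activated genes 2 higher and 1 lower of 6 in each genotype. The relative of the BK pore that calcium does not open is among the higher ones in each genotype. KCNQ genes had 0 higher and 3 lower of 5 in HT and 0 and 1 in WT. KChIP genes had 2 higher and 1 lower of 4 in HT and 1 and 1 in WT, Kv beta genes 1 and 1 of 3 in HT and 0 and 1 in WT, and BK beta genes 1 and 1 of 3 in HT and 1 and 0 in WT. Of the 3 non-coding genes 2 were higher in HT and 1 in WT, and of the 2 sodium-activated genes 1 was higher, in WT. The 2 MinK-type genes had median differences of -0.15 in HT and -0.20 in WT, and neither passed.

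The direction followed GC content. The 29 coding members called lower in WT had a median GC content of 57.1%, the 11 called higher 43.2% and the 40 not called 49.2%. In HT the medians were 57.2% (29 lower), 46.0% (13 higher) and 49.4% (38 not called). Across bins of GC content the median difference in WT was 0.08 under 45% (15 members), -0.06 at 45 to 50% (18), -0.16 at 50 to 55% (18), -0.24 at 55 to 60% (22) and -0.41 above 60% (7). The same bins in HT gave 0.05, 0.00, -0.06, -0.24 and -0.39. All coding genes tested had a median of 49.9% and the coding members 52.0%.

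With the GC and length trend removed from each library, lithium gave 21 members higher and 10 lower in WT, beside 18.3% and 16.6% of all genes, and 12 higher and 8 lower in HT, beside 12.4% and 16.5%. The balance of directions therefore turned round, and the part of composition in the lithium result was not tested. Called in the same direction in both genotypes, with and without the trend, were 3 members higher (Kcnk1, Kcnn2 and Kcns2) and 5 lower (Kcnd2, Kcng1, Kcng4, Kcnj11 and Kcnk12). Kcnc1 (Kv3.1) was called lower in both genotypes as deposited (-0.22 in HT and -0.28 in WT) but higher in both with the trend removed. Kv pore genes went to 3 higher and 3 lower in HT and 4 and 2 in WT. KCNH genes went to 0 and 0 in HT and 1 and 2 in WT.

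**Figure D3:**
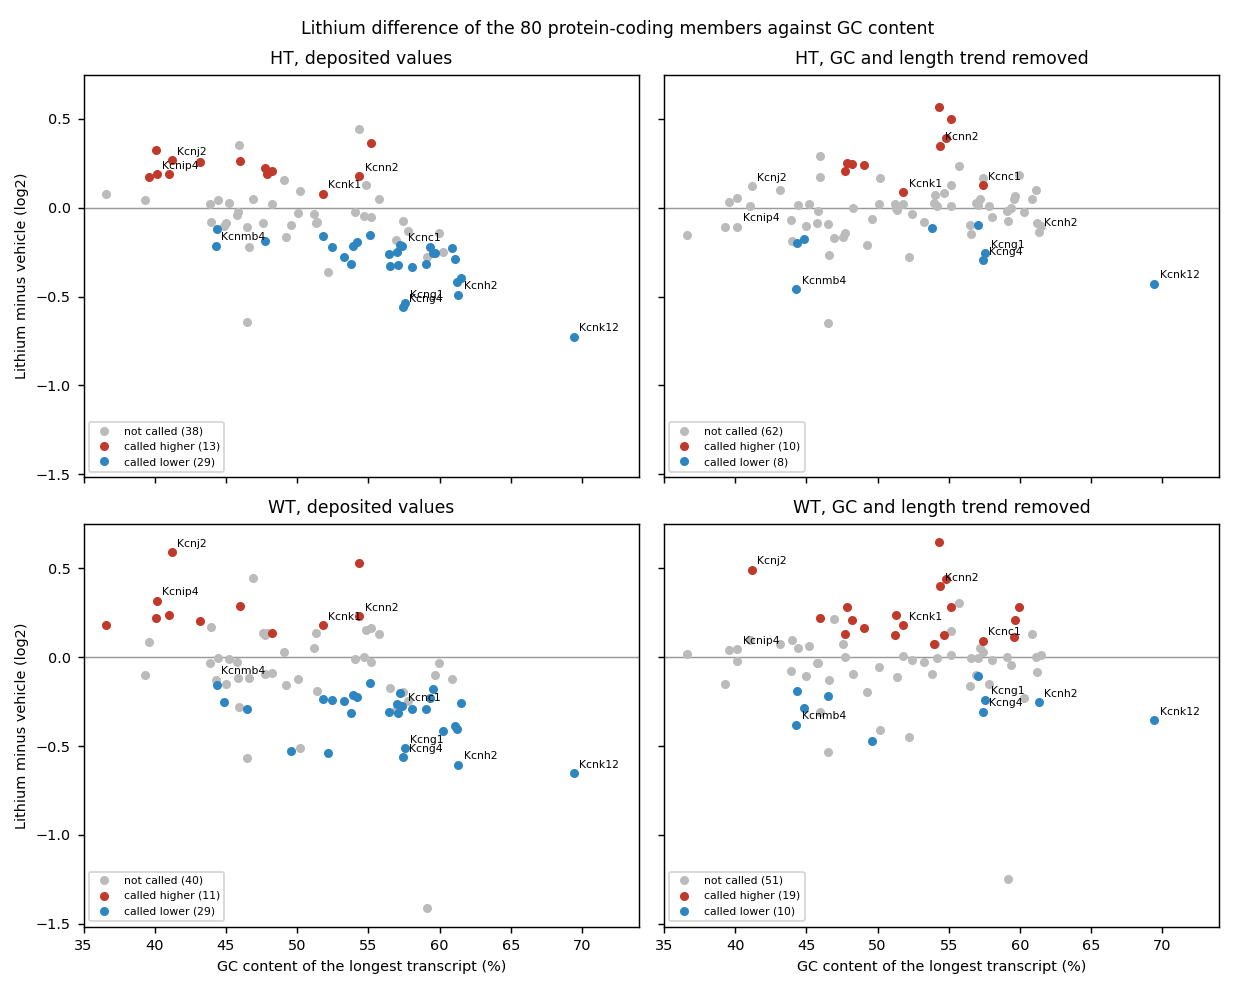
Log2 difference, lithium minus vehicle, of the 80 coding members against the GC content of the gene in percent (HT above, WT below; left, deposited values; right, GC and length trend removed), coloured by call. On the left 13 were higher and 29 lower in HT and 11 and 29 in WT, with the lower ones at high GC content; on the right 10 and 8 in HT and 19 and 10 in WT, spread over the whole axis.

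Kcnk12 had the largest decrease among these 8 members. It had 81.4, 116 and 139 normalised counts in HT lithium libraries, against 138, 194 and 226 in HT vehicle libraries. In WT it had 90.8, 107 and 146 in lithium libraries, against 140, 175 and 192 in vehicle libraries. In each genotype 9 of 10 lithium libraries lay below every vehicle library. The log2 differences were -0.73 ± 0.09 in HT (adjusted p = 3.56e-10) and -0.65 ± 0.08 in WT (adjusted p = 1.95e-09), and -0.43 in HT and -0.35 in WT with the trend removed (adjusted p = 8.44e-06 and 8.01e-05). Kcnk12 lies on chromosome 17 at 87745801 to 87797994, minus strand.

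The silent subunits Kcng1 (Kv6.1) and Kcng4 (Kv6.4), which modify Kv2 channels, were lower with it. Kcng1 (chromosome 2 at 168260117 to 168281736, minus strand) had 1084, 1281 and 1430 in HT lithium libraries, against 1557, 1756 and 2170 in HT vehicle libraries, and 1140, 1337 and 1416 in WT lithium libraries, against 1527, 1848 and 2283 in WT vehicle libraries. Neither genotype's lithium range overlaps its vehicle range. The differences were -0.54 ± 0.05 in HT (adjusted p = 6.1e-12) and -0.51 ± 0.05 in WT (adjusted p = 7.36e-12), or -0.26 and -0.24 with the trend removed. For Kcng4 they were -0.56 ± 0.11 in HT and -0.56 ± 0.10 in WT (adjusted p = 1.65e-05 and 8.49e-06), or -0.30 and -0.31 with the trend removed (adjusted p = 0.0217 and 0.0115). Kcns2 (Kv9.2, of the same silent class) was higher, by 0.21 ± 0.05 in HT (adjusted p = 0.00125) and 0.14 ± 0.05 in WT (adjusted p = 0.0275), or 0.24 and 0.21 with the trend removed (adjusted p = 0.000448 and 0.00132).

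Kcnj11 had 858, 969 and 1100 in HT lithium libraries, against 1146, 1191 and 1257 in HT vehicle libraries, with no overlap. In WT it had 904, 963 and 1015, against 1014, 1197 and 1387 in vehicle libraries, which touch at one end. The differences were -0.32 ± 0.04 in HT and -0.31 ± 0.04 in WT (adjusted p = 4.26e-09 and 2.69e-09), and about -0.10 in HT and -0.11 in WT with the trend removed (adjusted p = 0.0445 and 0.0224). Kcnh2, an ERG channel, had 677, 704 and 765 in WT lithium libraries, against 947, 1076 and 1309 in WT vehicle libraries. The WT ranges lie far apart, and its difference was -0.60 ± 0.05 (adjusted p = 1.39e-14), or -0.25 with the trend removed (adjusted p = 0.000154). In HT it was -0.49 ± 0.05 (adjusted p = 2.94e-11), but with the trend removed -0.13 (adjusted p = 0.0577).

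Some abundant members fell in the deposited values but did not pass once the trend was removed. Kcnab2 had differences of -0.33 in HT and -0.29 in WT, and -0.05 and -0.02 with the trend removed (adjusted p = 0.148 and 0.677). Kcnh3 had -0.42 in HT and -0.41 in WT, and -0.09 and -0.08 with the trend removed (adjusted p = 0.21 and 0.212). Kcnmb4 went the other way: -0.21 in HT (adjusted p = 0.00213) became -0.46 (adjusted p = 3.9e-07).

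Some auxiliary subunits were higher under lithium. Kcnab3 (Kv beta 3) had 952, 1246 and 1489 in HT lithium libraries, against 744, 999 and 1110 in HT vehicle libraries, with 7 of 10 lithium libraries above every vehicle library. Its difference was 0.36 ± 0.09 in HT (adjusted p = 0.000547) and 0.17 ± 0.09 in WT (adjusted p = 0.103), and the interaction of 0.20 ± 0.12 did not pass (adjusted p = 0.832). With the trend removed the difference was 0.50 in HT and 0.29 in WT, and both passed (adjusted p = 2.54e-05 and 0.00917). Kcnip1 (KChIP1, a calcium-binding subunit of Kv4 channels) had 722, 802 and 1120 in HT lithium libraries, against 662, 702 and 793 in HT vehicle libraries. All 10 lithium libraries exceeded the vehicle mean of their sex, and 5 exceeded every vehicle library. The difference was 0.22 ± 0.06 in HT (adjusted p = 0.000777) and 0.12 ± 0.06 in WT (adjusted p = 0.0571), or 0.21 and 0.13 with the trend removed (adjusted p = 0.00247 and 0.0441).

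Kcnh5 (EAG2) had 183, 546 and 643 in WT lithium libraries, against 502, 725 and 793 in WT vehicle libraries, so that 1 lithium library lay far below the rest and 4 lay below every vehicle library. The WT difference was -0.53 ± 0.14 (adjusted p = 0.00109), and the call held with each library left out, at -0.61 to -0.38, and with the trend removed, at -0.47 (adjusted p = 0.00546). In HT it was -0.10 ± 0.14 (adjusted p = 0.599), and the genotypes did not differ past the threshold (0.43 ± 0.20, adjusted p = 0.832). Kcnip4 was higher by 0.19 in HT and 0.32 in WT, but at -0.11 in HT and 0.04 in WT with the trend removed, and the HT call was lost without HT vehicle male replicate 3.

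Members whose lithium and vehicle libraries did not overlap at all, in the deposited values, were few. In WT, Kcnk1 lay above (6.22% of all genes tested did) and Kcnd1 (Kv4.1), Kcng1 and Kcnh2 lay below (5.87%). In HT, 0 lay above (5.53%) and 6 lay below (7.80%), among them Kcnab2, Kcnd1, Kcng1, Kcnh3 and Kcnj11.

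Genes that work with these channels were read from a list of 32, of which 30 were tested. Under lithium 2 were higher and 16 lower in HT and 3 higher and 17 lower in WT, with medians of -0.20 and -0.24, while 25.7% of all genes tested were higher and 24.9% lower in HT and 26.6% and 26.3% in WT. With the trend removed 1 was higher and 9 lower in HT (12.4% and 16.5% of all genes) and 4 higher and 9 lower in WT (18.3% and 16.6%), with medians of -0.07 and -0.06. Hcn4, a cation channel opened by hyperpolarisation, was at -0.42 in HT and -0.74 in WT, and Hcn2 at -0.43 in HT and -0.37 in WT. Dpp6, an auxiliary subunit of Kv4 channels, was at -0.29 in HT and -0.34 in WT. Ank3 (ankyrin G, which anchors channels at the axon initial segment) was at -0.34 in HT and -0.41 in WT, whereas Lgi1, a secreted Kv1 partner, was higher by 0.14 in HT and 0.19 in WT. With the trend removed Dpp6 was at -0.16 in HT and -0.19 in WT and Ank3 at -0.27 and -0.26, whereas Hcn2 was at -0.08 and -0.02 (adjusted p = 0.0171 and 0.504) and Hcn4 at -0.07 and -0.39 (adjusted p = 0.693 and 0.00683). Lgi1 was then at 0.11 in HT, which did not pass, and 0.21 in WT (adjusted p = 0.116 and 0.000619). Under fluoxetine the list had 1 higher and 13 lower in HT, beside 14.8% and 16.3% of all genes tested. In WT its median difference was -0.02. Its summed level ran 180705 to 185099 in HT fluoxetine females, against 200337 to 211353 in HT vehicle females. In HT males it ran 193574 to 202533 under fluoxetine, against 188737 to 210626 under vehicle. With the trend removed the list had 1 higher and 4 lower in HT females alone, with a median of -0.02. The deposited counts for HT cover both sexes and cannot be set against these. No share of all genes is given for this setting.

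Cell type markers moved with the lithium result, and their part in it was not tested. Of 9 excitatory neuron markers 0 were higher and 6 lower in HT and 1 higher and 6 lower in WT. Their summed level ran 53413 to 69443 in HT lithium libraries, against 66552 to 80808 in HT vehicle libraries, and 59839 to 71224 in WT lithium libraries, against 60460 to 80304 in WT vehicle libraries. Of 6 pericyte and smooth muscle markers 5 were lower in each genotype, of 6 endothelial markers 4 were lower and 1 higher in each, and of 8 astrocyte markers 5 were lower in each. With the trend removed 3 excitatory neuron markers were lower in HT and 1 in WT, 6 pericyte and smooth muscle markers in each, 4 endothelial markers in each (with 1 higher), and 5 astrocyte markers in HT and 4 in WT. None of these markers was at 0 in any library. The summed level of 8 striatal markers ran 4500 to 23873 over the 59 libraries. Sums of other lists also spread widely: oligodendrocyte 42406 to 237451, olfactory bulb 2290 to 21353 and choroid plexus 74.7 to 3138. The olfactory bulb and choroid plexus lists hold markers at 0 in some libraries.

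Genotype alone was called for no potassium channel gene under vehicle. HT was higher than WT in 0 members (0.0279% of all genes tested) and lower in 0 (0.0783%) in limma; 3 members had an unadjusted p under 0.05 (Kcng4 at -0.27, Kcnh7 at -0.21 and Kcnj3, the GIRK1 subunit, at -0.15), and edgeR and DESeq2 called 0. Under lithium HT was again higher in 0 (0.168%) and lower in 0 (0.218%), with 11 members at an unadjusted p under 0.05 and 0 called by edgeR or DESeq2.

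Over all treatments HT was higher in 1 member (5.15% of all genes) and lower in 11 (9.59%). Without the HT fluoxetine females it was higher in 0 (1.21%) and lower in 3 (2.11%): Kcng4, Kcnmb1 and Kcnh7. Leaving out WT vehicle female replicate 1 instead gave 19 calls. The single increase was Kcnj16 (Kir5.1, a partner of the astrocytic rectifier Kir4.1), at 0.13 ± 0.03 (adjusted p = 0.00609), with 24 of 29 HT libraries above the WT mean of the same treatment and sex. It was not called without those females.

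Kcng4 (ENSMUSG00000045246, chromosome 8 at 119623854 to 119635680, minus strand) was the most regular genotype difference. It had 116, 159 and 206 normalised counts in HT fluoxetine libraries, against 196, 219 and 295 in WT fluoxetine libraries. Under lithium it had 97.0, 123 and 194 in HT, against 122, 150 and 196 in WT, and under vehicle 162, 184 and 243 in HT, against 164, 231 and 272 in WT. Every treatment's ranges overlap, and HT medians were lower in all of them; 26 of 29 HT libraries lay below the WT mean of their treatment and sex. The log2 difference over all treatments was -0.37 ± 0.06 (adjusted p = 3.03e-05), with -0.56 ± 0.10 under fluoxetine (adjusted p = 2.71e-05), -0.27 ± 0.10 under lithium (adjusted p = 0.221) and -0.27 ± 0.11 under vehicle (adjusted p = 0.473). The call over all treatments held under the 14 alternatives and with each of the 59 libraries left out. The call under fluoxetine was among those lost without the HT fluoxetine females.

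Kcnmb1, the smooth muscle BK beta subunit, was also lower in HT over all treatments, by -0.37 ± 0.11 (adjusted p = 0.0202). It is a scarce transcript, with medians of 15.4 in HT fluoxetine, 17.8 in HT lithium and 21.0 in HT vehicle libraries, against 26.0, 20.8 and 23.2 in WT, and it overlaps Kcnip1 on the opposite strand. The 6 pericyte and smooth muscle markers had a median summed level of 6664 in HT against 8470 in WT under fluoxetine, 6702 against 6571 under lithium and 7928 against 8836 under vehicle, and their part in the Kcnmb1 difference was not tested. Kcnab2 (-0.09), Kcnd1 (-0.11), Kcng1 (-0.14) and Kcnh3 (-0.14) were lower over all treatments, and none of them was called without the HT fluoxetine females.

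**Figure D4:**
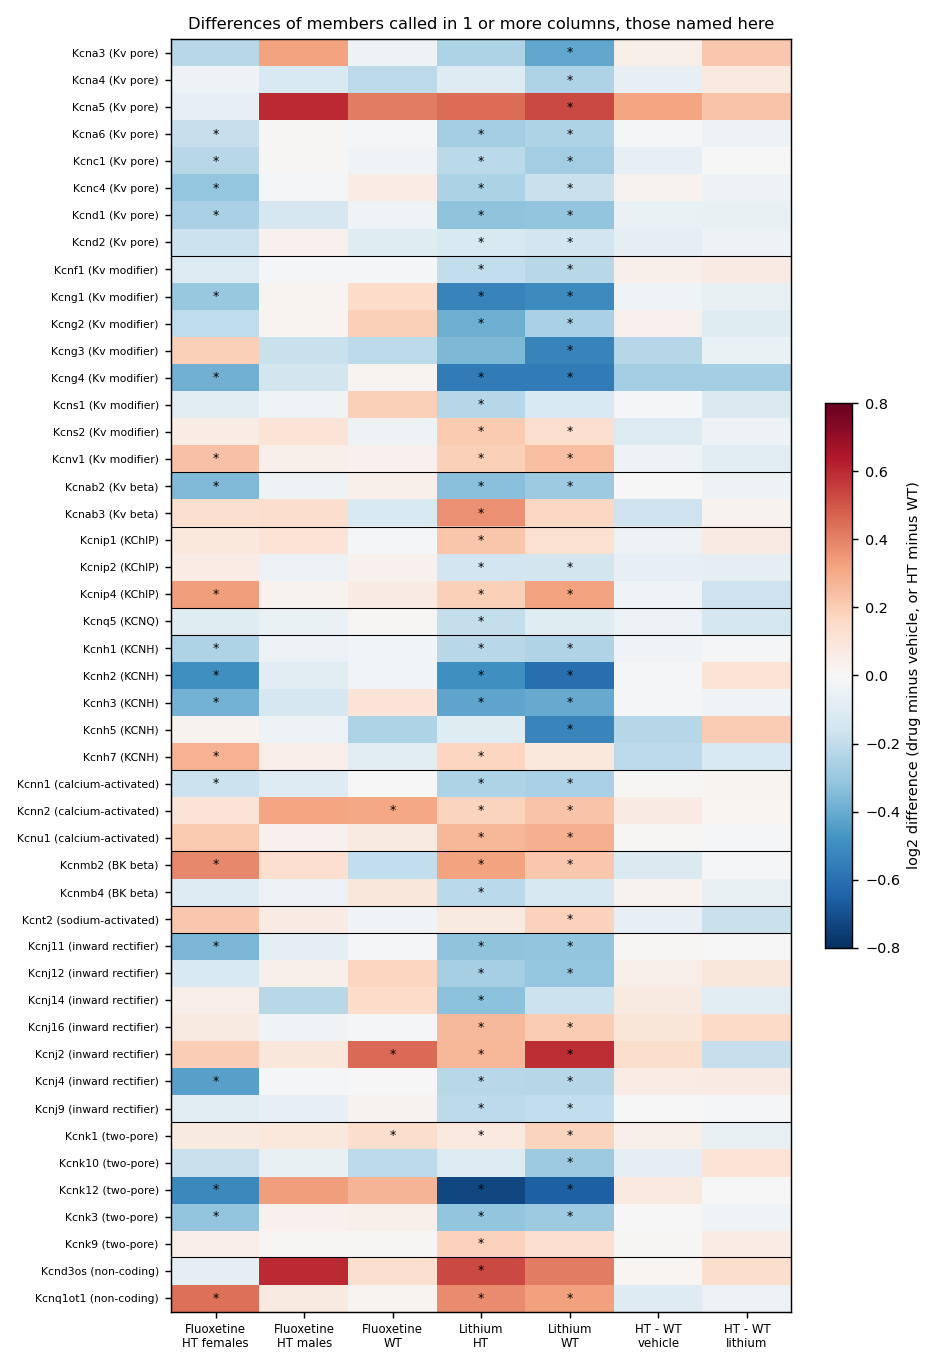
Log2 differences of 47 of the 51 members called in at least 1 of 7 comparisons (4 called members are not shown), as a heat map with members down the page by family and comparisons across (asterisks, adjusted p under 0.05). The lithium columns hold most of the colour (over all members, 44 calls in HT and 41 in WT), the column of fluoxetine in WT has 3 calls, and Kcng4 is at -0.27 in both columns of HT against WT (lithium and vehicle).

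Females were higher than males over all groups in 0 members (3.55% of all genes tested) and lower in 6 (5.20%), namely Kcnh3 (-0.13), Kcnh4 (-0.18), Kcnj4 (-0.10), Kcnj12 (-0.13), Kcnk12 (-0.14) and Kcns1 (-0.14). At an unadjusted p under 0.05, 5 members were higher, with 0 called higher by edgeR and 1 by DESeq2. Without both HT fluoxetine groups 0 members were called in either direction in limma, and 3 were called lower without WT lithium female replicate 4 or without WT vehicle female replicate 1.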

How the data were processed

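RNA of 59 prefrontal cortex libraries was sequenced after stranded poly(A) preparation, per the labels' protocols. Per the submitters' processing notes, DESeq2 1.19.11 in R 3.6.0 and Salmon 0.11.2 were used with GRCm38. The deposited signal values are whole estimated counts divided by the authors' size factor per library (0.827 to 1.13): whole reads came back for 100% of values up to 1000 reads, within 0.01 read, in every column. The counting's use of strand is not given in the sources used here.

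Symbols, transcript lengths and GC content came from GENCODE M21, and promoters from RefSeq. Differences were tested in R 4.3.3 with limma 3.58.1 and its intensity trend, after adding 1 and taking log2, a scale that understates changes of low genes, with 12 group means of genotype, treatment and sex, 47 residual degrees of freedom, equal weights for the sexes and two-sided p-values adjusted by Benjamini-Hochberg over 17891 genes with a value of 10 or more in 4 or more libraries; 0.05 was the threshold, and ± is the SE unless SD is stated. Alternatives were count models of DESeq2 1.42.0 and of edgeR 4.0.16 fitted to recovered reads, other pseudocounts, filters, normalisations, blocks and left-out libraries, and subtraction, library by library, of a spline (natural, 5 degrees of freedom) fitted to GC content and log2 length. Where the HT fluoxetine females were left out, the HT fluoxetine males took their weight and the other groups kept both sexes. The limma and edgeR fits were tested on simulated data with changes under lithium in WT and no shift in composition. DESeq2, the trend removal and the other comparisons were not tested in this way. Python 3.11.15 with pandas 2.3.3 and matplotlib 3.10.9 made summaries and figures.

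Members, lists and alternatives were chosen with earlier results of these data known. Named were, per comparison, the 6 largest called increases and decreases with a mean of 100 or more, the 2 smallest p-values of each family with a call, and the 3 smallest p-values where none was called, beside the highest levels; 4 members are counted but not reported here by name. Replicate numbers in the titles did not pair libraries: the mean correlation of residuals was 0.0104 over 319 pairs with the same number and -0.00257 over 1276 with different numbers. Other marker lists had these counts under lithium: oligodendrocyte 0 higher and 0 lower of 8 in HT and 0 and 1 in WT, oligodendrocyte precursor 0 and 1 of 6 in HT and 0 and 2 in WT, microglia 2 and 2 of 8 in HT and 3 and 2 in WT, interneuron 2 and 2 of 9 in HT and 2 and 1 in WT, striatum 1 and 0 of 8 in each, choroid plexus 0 and 0 of 7 in HT and 1 and 0 in WT, and olfactory bulb 1 and 0 of 7 in HT and 0 and 0 in WT.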

Additional observations from a re-analysis of the deposited data

Results flagged for a closer look

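In 8 of 132 groups of 11 members, 1 library lay far from the others of its group by Dixon's criterion, which chance meets in about 1 group in 20. Kcnn2 had 912 normalised counts in 1 WT lithium male, against 1106 to 1169 in the other 4. Kcnk1 had 3095 in 1 HT fluoxetine female, against 2819 to 2833 in the others. Among HT vehicle males, 1 library had 2170 for Kcng1, against 1678 to 1756, and 1 had 11024 for Kcnab2, against 9930 to 10048. Kcng4 had 295 in 1 WT fluoxetine male, against 196 to 217, and Kcnc1 (Kv3.1) had 4888 in 1 WT fluoxetine male, against 5306 to 5405. Kcnh2 had 1309 in 1 WT vehicle female, against 1016 to 1085, and Kcnh3 had 6966 in 1 HT vehicle female, against 5424 to 5847.

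The fluoxetine effect differed between HT and WT for Kcnab2 (-0.24), Kcnh3 (-0.36), Kcng1 (-0.29) and Kcnj4 (-0.23), by the interaction term in limma. It differed between HT females and HT males for Kcnab2 (-0.31), Kcnk12 (-0.85) and Kcnj4 (-0.42). The HT fluoxetine females are among the 25 libraries with the shifted composition, whose part in these differences was not tested.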

How the results depend on the processing

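Of 140 called results on named members, 33 held under every alternative run and 107 were lost or reversed under at least 1; 28 were lost by leaving out 1 library. Without the HT fluoxetine females, the HT fluoxetine males alone stood against groups of both sexes. The counts were then 0 for HT against WT under fluoxetine (20 as reported), 3 for HT against WT over all treatments (12), 1 for fluoxetine in HT (20) and 0 for the genotype by fluoxetine interaction (12). With the GC and length trend removed they were 6, 12, 7 and 0, with 20 for lithium in HT (44), 31 for lithium in WT (41) and 1 for females against males (6). That last count was 0 without both HT fluoxetine groups, an alternative chosen after seeing the data, as were the trend-removed counts of the marker and partner lists. DESeq2 gave 5 calls for fluoxetine in WT (3). Leaving out each library in turn gave 18 to 24 calls for HT against WT under fluoxetine, 9 to 19 over all treatments, 3 to 6 for fluoxetine in WT, 14 to 23 for fluoxetine in HT, 38 to 44 for lithium in WT, 39 to 44 for lithium in HT, 9 to 12 for the genotype by fluoxetine interaction and 3 to 8 for females against males. The cause of these shifts was not tested. Shares of all genes stand above for lithium with the trend removed. They also stand there for HT against WT over all treatments without the HT fluoxetine females. No such share is given for the other alternatives.

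Among the 140 called results on named members, the direction turned with the trend removed as follows. For HT against WT under fluoxetine, Kcnn1 came to 0.0406. For fluoxetine in HT, Kcnq1ot1 came to -0.113, Kcng1 to 0.0369, Kcnc4 to 0.0189 and Kcnn1 to 0.0323, and in HT females Kcnq1ot1 to -0.0242, Kcnc4 to 0.00636 and Kcnn1 to 0.112. For lithium in HT, Kcnip4 came to -0.107 and Kcnn1 to 0.0161. For lithium in WT, Kcnmb2 came to -0.0205 and Kcnip2 to 0.0128. Kcnc1 under lithium, not among the 140, went from called lower to called higher in both genotypes. For lithium against fluoxetine in WT, Kcnip4 came to -0.0533, Kcnt2 to -0.00403 and Kcnn1 to 0.0229. Without the HT fluoxetine females, Kcnk12 came to 0.142 and Kcnj4 to 0.0293 for HT against WT under fluoxetine, and Kcnh7 to -0.0101 and Kcng1 to 0.0154 for fluoxetine in HT.

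With the title's replicate number as a block, the counts were 0, 21 and 0 for HT against WT under vehicle, fluoxetine and lithium, 13 over all treatments, 3 for fluoxetine in WT, 20 for fluoxetine in HT, 42 for lithium in WT, 45 for lithium in HT, 10 and 0 for the interactions with fluoxetine and lithium, and 5 for females against males. With the library number as the block they were 0, 21, 0, 12, 3, 19, 41, 45, 10, 0 and 5 in this order. These numbers do not pair libraries. Depth limits the scarcest members: 5 had a mean under 20.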
